A study of Mus musculus with 6 samples.

Results

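The VEGF receptors and ligands were 7 genes of the 24421 in the count table, taken by symbol: the receptor genes Kdr (VEGFR2), Flt1 (VEGFR1) and Flt4 (VEGFR3), and the ligand genes Vegfa, Vegfb, Vegfc and Pgf. Each was described in 6 RNA-seq libraries of mouse endothelial cells (ECs), 1 library per group, in a design of conditional knockout or forced expression of Dot1l, the methyltransferase of lysine 79 on histone H3. Cont and cKO blood ECs (BECs) were from embryonic skin at E15.5. Cont embryos were Tie2-Cre(-); Dot1l 2f/2f and the cKO littermates were Tie2-Cre(+); Dot1l 2f/2f, so that both carried the floxed allele, although the label of the control reads wild type. Cre was driven by the promoter of Tie2, an endothelial receptor gene that is also active in blood cell lineages. The cells had been depleted of CD45- and F4/80-positive cells and then of Lyve1-positive cells, and each library pooled the RNA of 2 to 3 embryos. A figure legend of the paper also names CD31 as a positive marker of the isolated BECs. The other 4 libraries were cultured yolk sac BECs and cultured dermal lymphatic ECs (LECs), each a purchased mouse embryonic line without a stated age. The OE-BECs and OE-LECs carried a lentivirus with catalytically dead Cas9 fused to the activator VP64 and guides to the Dot1l promoter, the matching Cont cells an empty lentivirus, and EGFP-positive cells of 2 to 3 flasks made each library.

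VEGF signalling is the main growth and survival pathway of ECs. Vegfa acts through Kdr, the principal signalling receptor of angiogenesis, whereas Flt1 binds Vegfa, Vegfb and Pgf tightly, signals weakly and is also made as a soluble form that traps ligand. Flt4 is the receptor of Vegfc, the growth factor of lymphatic vessels, and is carried by LECs and by sprouting blood vessels, while neuropilins are co-receptors.

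The libraries held between 8863349 and 31032461 reads, and a count of 3 reads, treated as the floor of a library, was 0.0967 to 0.338 counts per 1000000 reads (CPM). With 1 library per group no value has a replicate, and every difference is one between 2 libraries. All intervals are 95% intervals and, like the floors, cover the error of counting alone, since these amplified reads carried no molecular identifiers. Dot1l had 762 reads in Cont and 944 in cKO skin BECs (log2 ratio -0.07, interval -0.21 to 0.07), so the latter is called the library labelled cKO. The floxed exons of Dot1l cannot be told from the others in a gene count. In culture Dot1l had 1972 and 4208 reads in Cont and OE cells of the BEC line, and 2490 and 6720 in those of the LEC line. The pan-endothelial genes Pecam1 and Cdh5 were well counted in all 6 libraries, with 750.3 to 1187.0 CPM of Pecam1. The lymphatic fate gene Prox1 had 1304 and 883 reads in the skin BEC libraries and 0 reads in the 4 cultured libraries, the LEC libraries included. Those LEC libraries also had no read of Pdpn, another lymphatic gene, and had 52184 and 60898 reads of Lyve1. The skin BEC libraries held 9105 and 19959 reads of Lyve1 and 22493 and 43350 of Mrc1, a macrophage gene. The labels BEC and LEC are therefore used here as the names of the libraries.

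Each of the 7 genes had a promoter window in RefSeq (build GRCm38.p6, 9 windows in all, from 250 bases before to 50 after a start site). GC content of these windows was 59.3% to 75.3%, against a median of 52.7% over 32851 windows. For 3 genes the window is shown, up to 30 bases after the start, because Flt1 and Pgf were the members with lower counts in both overexpression comparisons and Kdr, a receptor like Flt1, was not. Capitals mark GGAAG on either strand, the core and flank of ETS factor sites, and TGACGTCA, the cyclic AMP response element. All are read 5′ to 3′ on the minus strand, which carries the 3 genes. They lie at chr5:75978426-75978705 (Kdr), chr5:147725982-147726261 (Flt1) and chr12:85177284-85177563 (Pgf).
Kdr: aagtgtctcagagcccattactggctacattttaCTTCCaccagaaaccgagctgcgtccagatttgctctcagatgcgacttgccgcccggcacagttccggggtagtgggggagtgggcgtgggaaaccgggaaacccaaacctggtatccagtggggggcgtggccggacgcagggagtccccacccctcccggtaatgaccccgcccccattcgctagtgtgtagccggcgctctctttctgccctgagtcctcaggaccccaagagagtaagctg
Flt1: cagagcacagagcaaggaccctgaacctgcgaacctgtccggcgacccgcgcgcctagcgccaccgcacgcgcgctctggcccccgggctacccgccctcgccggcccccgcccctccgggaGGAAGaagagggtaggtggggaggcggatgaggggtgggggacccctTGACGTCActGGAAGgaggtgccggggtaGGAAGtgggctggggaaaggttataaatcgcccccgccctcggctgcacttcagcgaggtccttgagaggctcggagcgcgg
Pgf: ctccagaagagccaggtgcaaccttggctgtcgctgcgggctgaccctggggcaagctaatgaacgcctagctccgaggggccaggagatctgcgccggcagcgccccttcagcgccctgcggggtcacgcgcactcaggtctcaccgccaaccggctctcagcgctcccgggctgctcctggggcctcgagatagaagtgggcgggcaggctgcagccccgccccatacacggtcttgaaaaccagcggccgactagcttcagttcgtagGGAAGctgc
The Flt1 window held 3 matches of GGAAG, at -128, -71 and -52 from the start site, and the Kdr and Pgf windows 1 each, at -216 and 21. GGAAG was present in 71.4% of all 300-base windows. TGACGTCA, at -81 in Flt1 and in no other member's window, was present in 1.79%. The Flt1 window also held TATAAA at -31, which 13.6% of windows held, and 3 matches of GGGCGG, a GC box, which 35.7% held at least once. GGGCGG was also found in a window of every other member, with 4 matches in that of Vegfb. No 2 of these motifs shared a base in the Flt1 window. The core of the hypoxia response element, ACGTG, was found in 19.6% of windows and among the members only in the downstream window of Vegfa, at -211. Such matches describe the letters of the windows and not binding.

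Kdr, on the minus strand of chromosome 5 from 75932827 to 75978458 (mm10, GENCODE M21), had the highest level per kilobase of exon of the receptors in each of the 6 libraries. Its level was 1751.8 CPM in Cont and 911.3 in cKO skin BECs, 721.2 in Cont BECs and 569.6 in OE-BECs in culture, and 466.4 in Cont LECs and 514.1 in OE-LECs. Both skin libraries thus lay above the 4 cultured ones, and no neighbours in this order had overlapping intervals. Flt1, also on chromosome 5 (minus strand, 147561604 to 147726011), spanned 10.8-fold, the widest range of the receptors. Flt1 was at 404.2 and 274 CPM in Cont and cKO skin BECs, 288.3 and 63.7 in Cont BECs and OE-BECs, and 82.4 and 37.4 in Cont LECs and OE-LECs. Cont cultured BECs and cKO skin BECs had overlapping intervals, and both overexpression libraries stood below the other 4. Flt4 (chromosome 11, plus strand, 49609263 to 49652739) was at 294.1 and 237.1 CPM in Cont and cKO skin BECs, 144.3 and 98.3 in Cont BECs and OE-BECs, and 106.6 and 130.1 in Cont LECs and OE-LECs. The cultured LEC libraries did not exceed Cont cultured BECs in Flt4, the receptor that marks lymphatic endothelium in the adult.

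Of the ligands, Pgf and Vegfc separated the skin from the cultured libraries. Pgf, encoding placental growth factor (chromosome 12, minus strand, 85166635 to 85177790), was at 4.4 and 6.95 CPM in Cont and cKO skin BECs, at 335.1 and 149.6 CPM in the cultured pair of BECs, and at 325.0 and 176.8 CPM in the pair of LECs, the control first. The lowest cultured library was 21.5-fold above the highest skin library. Vegfc (chromosome 8, plus strand, 54077606 to 54187096) had the opposite pattern, with 229 and 228 reads in the skin libraries (25.8 and 20.6 CPM) and 0, 0, 1 and 0 reads in the cultured ones. The lower skin level was at least 95.5-fold higher than the highest floor of a cultured library, taken as 3 reads per library. Tissue origin, sorting and culture cannot be told apart in these differences. Vegfa (chromosome 17, minus strand, 46016993 to 46032369) varied least, from 22.6 CPM in Cont skin BECs to 44.3 CPM in Cont cultured BECs, and its intervals overlapped between neighbours in order in the other 5 libraries. Vegfb (chromosome 19, minus strand, 6982473 to 6987651) was at 16.3 and 19.1 CPM in Cont and cKO skin BECs, 42.4 and 47.5 in Cont BECs and OE-BECs, and 25.3 and 20.9 in Cont LECs and OE-LECs. Its intervals overlapped within the skin pair, within the cultured BEC pair, and between OE-LECs and cKO skin BECs. No exon of the 7 genes overlapped an exon of another gene.

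**Figure D1:**
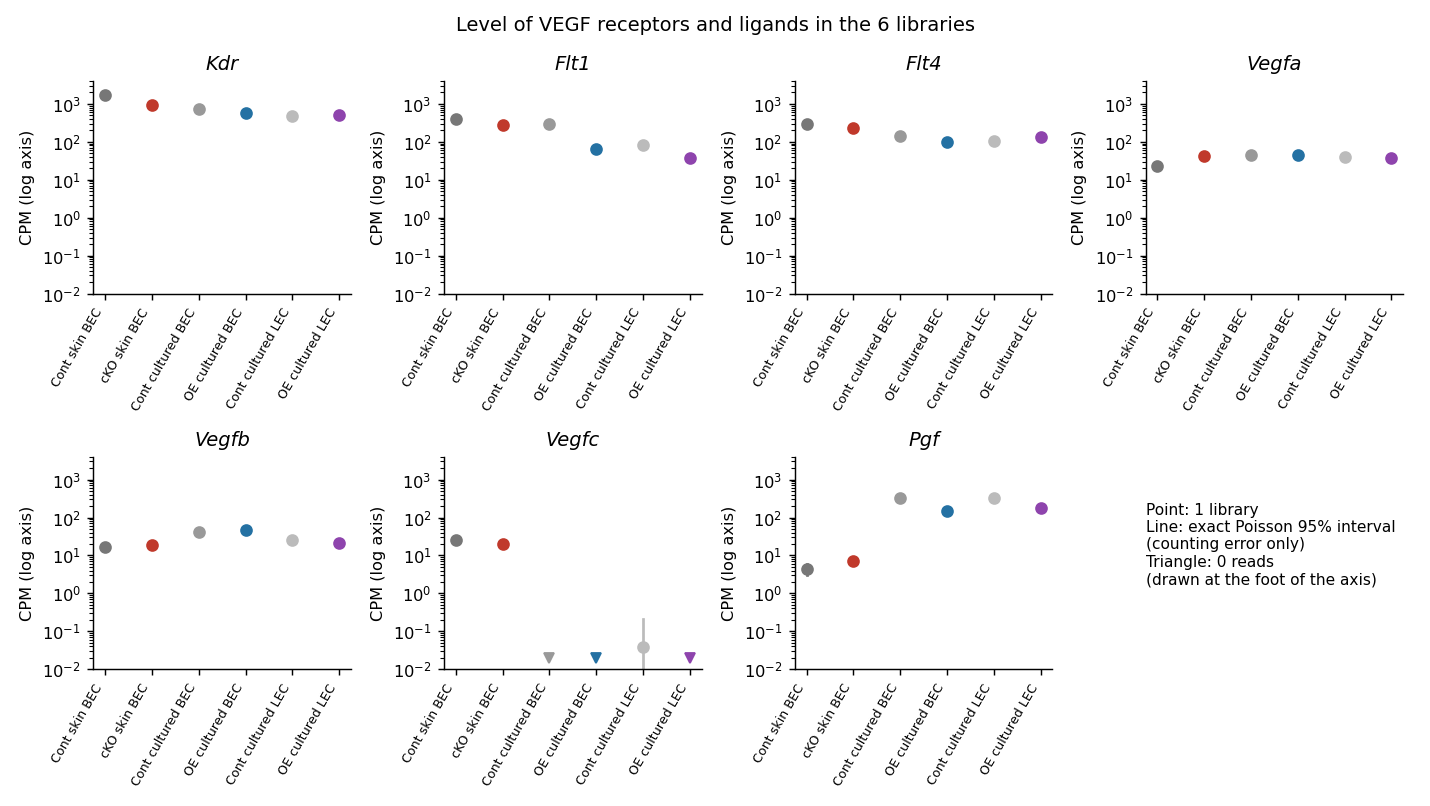
Level of each of the 7 genes in CPM (log axis) in the 6 libraries, with exact Poisson 95% intervals as lines where they are wider than the point and triangles for 0 reads. Pgf lay at 4.4 and 6.95 CPM in the skin libraries and at 149.6 CPM or more in culture, and Vegfc had 228 or 229 reads in skin against 0 or 1 in culture.

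Levels of different genes were compared per kilobase of exon (reads per kilobase of the union of exons per 1000000 reads). On this scale Kdr took 74.7% and 67.3% of the 3 receptors in Cont and cKO skin BECs, 67.3% and 79.1% in Cont BECs and OE-BECs, and 73.1% and 75.4% in Cont LECs and OE-LECs. Flt1 took 18.0% in Cont cultured BECs and 5.92% in OE-BECs, and 8.63% in Cont LECs and 3.67% in OE-LECs. In skin its share was 11.5% and 13.5%. The share of Flt4 was 13.8% and 19.2% in skin, 14.8% and 15% in cultured BECs, and 18.3% and 20.9% in LECs. Among the ligands Pgf took 56.4% to 81.7% of the summed level in culture and 5.52% and 7.37% in skin, where Vegfb took 36.9% and 36.7%, Vegfc 38.4% and 25.9%, and Vegfa 19.2% and 30.1%. Vegfc was thus the largest ligand share in Cont skin BECs and Vegfb in cKO skin BECs. With the longest transcript in place of the union of exons, Flt1 instead of Flt4 was second among the receptors in both skin libraries, and Kdr instead of Pgf led in OE-LECs. By that length Vegfb (39.8%) instead of Vegfc (33.1%) was the largest ligand share in Cont skin BECs, as it was in cKO skin BECs. The leading ligand in Cont skin BECs thus depended on the length used.

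**Figure D2:**
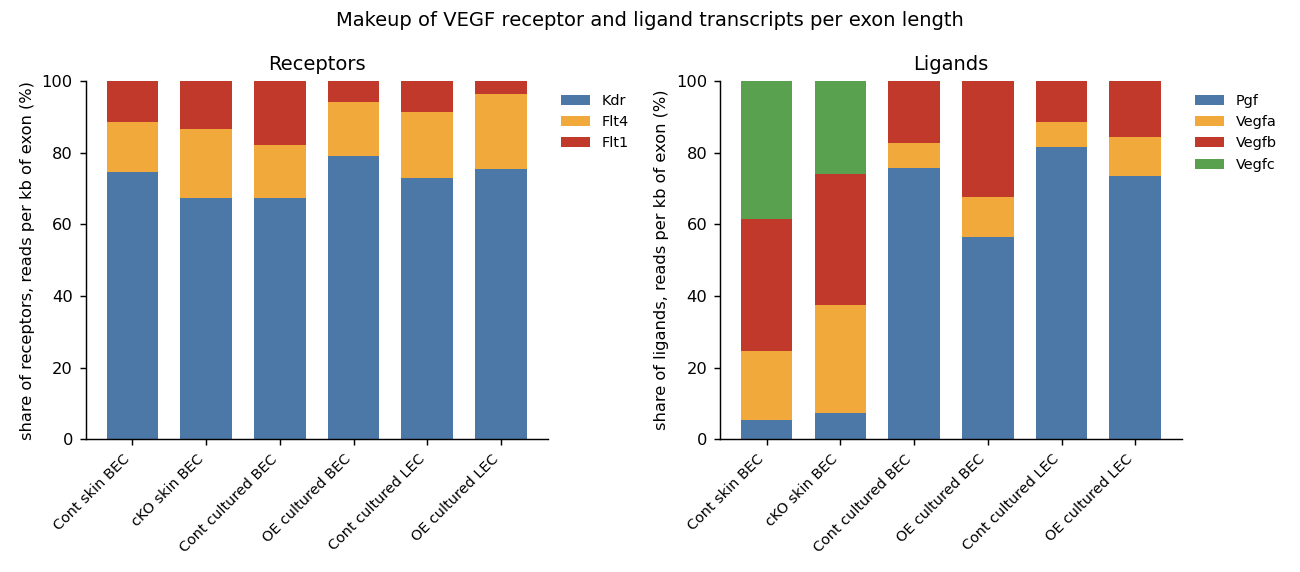
Share of each receptor (left) and ligand (right) in the summed level of its class, in percent of reads per kilobase of exon, with 1 stacked bar per library. Flt1 narrowed from 18.0% to 5.92% in cultured BECs and from 8.63% to 3.67% in LECs, and Pgf filled 56.4% or more of the ligand bar in culture.

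The first comparison asked how the 7 genes differed between skin BECs of Tie2-Cre(+) and Tie2-Cre(-) embryos with floxed Dot1l. In the library labelled cKO the 3 receptors were lower and Vegfa was higher than in Cont BECs. Counts were normalized to the median of ratios of the pair. Normalized counts of Kdr were 17699.8 in Cont and 8861.9 in cKO, with a log2 ratio of -0.998 (interval -1.03 to -0.96, 1.997-fold). Flt1 was at a log2 ratio of -0.62 (interval -0.69 to -0.55) and Flt4 at -0.37 (interval -0.45 to -0.29). The differences were thus graded, with Kdr the furthest from Cont, and all 3 intervals lay below 0. Vegfa had 200 reads in Cont and 464 in cKO and a log2 ratio of 0.84 (interval 0.59 to 1.08, 1.79-fold). For Pgf, on 39 and 77 reads, the log2 ratio was 0.60 (interval 0.03 to 1.20), for Vegfb 0.18 (interval -0.13 to 0.50), and for Vegfc -0.38 (interval -0.66 to -0.11). The interval of Vegfb included 0, so no difference in Vegfb could be detected with so few reads.

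By the rule of the study, a higher normalized count of at least 5 and more than 3-fold the lower one, 0 of the 7 genes were called in this comparison, against 5.17% of 15993 genes called higher and 2.41% called lower. At 2-fold or more, again 0 of the 7 passed, with Kdr just short of the limit, against 10.4% higher and 5.23% lower of all genes. Among genes with 100 or more normalized counts those shares were 3.54% and 2.06%. The median log2 ratio of the 7 genes was -0.37, beside 0.00205 over all genes tested. Of all genes tested, 5.25% had a ratio at or below that of Kdr.

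Markers of several cell types moved with these values. Of 14 blood endothelial markers, which do not include the 7 genes, 12 were lower in the library labelled cKO (summed level 5704.4 CPM in Cont and 3925.6 in cKO, log2 ratio -0.59), with Pecam1 at -0.71 and Cdh5 at -0.70. Among 10 macrophage markers 9 were higher (3776.8 and 5742.9 CPM, 0.55), and of 10 keratinocyte markers 7 were higher (266.9 and 423.2 CPM, 0.61). Mast cell markers were higher for 5 of 6 (0.44) and fibroblast markers lower for 7 of 8 (-0.50). Lymphatic endothelial markers were higher for 3 and lower for 3 of 6 (summed log2 ratio 0.24), and pericyte and smooth muscle markers were lower for 6 of 8 (-0.29). Adipocyte markers were lower for 4 of 6 (-0.70) and skeletal muscle markers for 3 of 5 (-0.69). Of all 7 adipocyte markers, 3 passed 3-fold lower and 0 higher, beside 2.41% and 5.17% of all genes. These were Adipoq (42 and 1 reads), Cidec (15 and 4) and Plin1 (38 and 0), the last without a ratio. Past 3-fold higher were 2 of 10 keratinocyte markers, Krt1 (33 and 254 reads) and Krt10 (51 and 263). So was 1 of 6 lymphatic endothelial markers, Stab2 (133 and 876), beside the same 5.17% of all genes. The other marker lists had no gene past 3-fold. No defining marker of blood endothelium, keratinocytes, fibroblasts, macrophages or mast cells was at 0 in both libraries. Their part in the results was not tested, and in these bulk libraries fewer cells of a type and less RNA per cell cannot be told apart. Relative to Pecam1 in the same library, Kdr was at a log2 value of -0.29 (interval -0.35 to -0.24), Flt1 was at 0.09 (interval 0.01 to 0.17) and Flt4 at 0.34 (interval 0.25 to 0.43). Against the summed reads of the 14 markers, Kdr was at -0.40, Flt1 at -0.02, Flt4 at 0.23 and Vegfa at 1.43 (interval 1.19 to 1.67). Kdr was thus lower by size factors, against Pecam1 and against the marker sum. Single markers of the 14 ran from Cd34 at -0.99 to Egfl7 at 0.21, so Kdr (-0.998) lay close to the lowest of them. Vegfa was higher by size factors. Its higher value against the marker sum follows from that, because the sum itself was lower. The difference of Flt1 against the marker sum was near 0, and that of Flt4 was positive against Pecam1 and the marker sum.

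**Figure D3:**
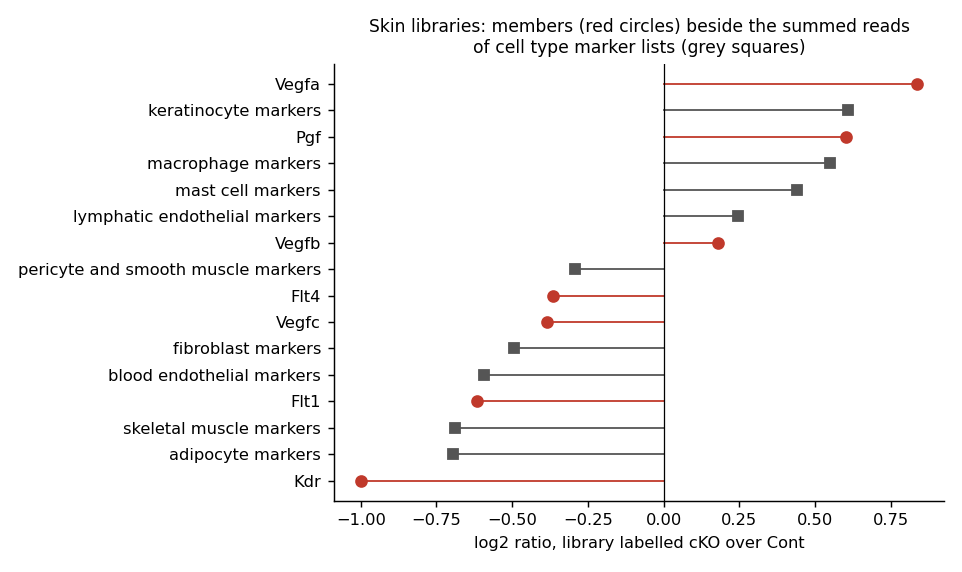
Log2 ratio of the library labelled cKO over Cont skin BECs for the 7 genes (red circles) and for the summed reads of marker lists of cell types (grey squares), 1 library per group. Kdr (-0.998) lay below the summed blood endothelial markers (-0.59), Flt1 (-0.62) beside that sum, and Vegfa (0.84) above the summed keratinocyte (0.61) and macrophage (0.55) markers.

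The second comparison set OE-BECs beside Cont cultured BECs. Flt1 and Pgf, a receptor and one of its own ligands, had the largest differences, and both were lower in OE-BECs. Flt1 was counted with 5099 reads without and 888 reads with overexpression. After normalization these were 4465.4 and 1014.0 counts, and the log2 ratio was -2.14 (interval -2.24 to -2.04), which left 22.7% of the control level. For Pgf the reads were 5926 and 2084 and the log2 ratio -1.12 (interval -1.20 to -1.05, 2.18-fold). Gene counts do not separate the soluble from the membrane form of Flt1, nor the isoforms of Vegfa. Flt4 was at -0.52 (interval -0.61 to -0.42) and Kdr at -0.30 (interval -0.34 to -0.26), so that all 3 receptors were lower, but Kdr by the smallest amount. Vegfb was slightly higher, at 0.20 (interval 0.05 to 0.36), and Vegfa did not differ detectably at 0.02 (interval -0.13 to 0.18). No ratio was given for Vegfc, with 0 reads in both libraries.

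By the study's rule for overexpression, a higher normalized count of at least 3 and more than 3-fold the lower one, 1 of the 6 members with that count was called, Flt1, and it was lower. Among all genes 8.02% were called higher and 5.27% lower. At 2-fold or more, Flt1 and Pgf passed, both lower, against 11.4% higher and 8.81% lower of all genes, and 1.82% and 4.17% of genes with 100 or more normalized counts. The median log2 ratio was -0.41 over the 6 members and -0.00280 over all genes. Of all genes tested, 3.46% had a ratio at or below that of Flt1 and 7.80% at or below that of Pgf. Blood endothelial markers were lower for 11 of 14 (summed level 8773.8 CPM in Cont and 5908.1 in OE, log2 ratio -0.53), with Cdh5 at -0.76 and Pecam1 at -0.28, and their part in the results was not tested. Reads of Rn45s, a ribosomal RNA gene, made up 5.91% of the Cont and 10.9% of the OE library. With Rn45s left out of the totals, Flt1 was at -2.10. Against the summed reads of the 14 markers, Flt1 was at -1.61 (interval -1.71 to -1.50) and Pgf at -0.59 (interval -0.67 to -0.52), whereas Kdr turned to 0.23 and Flt4 to 0.02.

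The third comparison set OE-LECs beside Cont LECs. Flt1 and Pgf were again the members with the largest differences. Flt1 had 2151 reads in Cont and 1161 in OE-LECs, and with the larger total of the OE library this was a log2 ratio of -1.12 (interval -1.22 to -1.02, 2.17-fold). For Pgf the reads were 8487 and 5488 and the log2 ratio -0.86 (interval -0.91 to -0.81, 1.82-fold). Flt4 was at 0.31 (interval 0.24 to 0.38) and Kdr at 0.16 (interval 0.12 to 0.19), both higher. Vegfb was at -0.26 (interval -0.42 to -0.10) and Vegfa at -0.03 (interval -0.15 to 0.09). None of the 6 members with a normalized count of at least 3 passed 3-fold, against 2.77% of all genes higher and 2.09% lower. At 2-fold or more 1 passed, Flt1, against 4.98% higher and 4.26% lower, and 1.5% and 0.847% among genes with 100 or more normalized counts. The median was -0.15 over the 6 members and 0.00308 over all genes, and 3.72% of all genes had a ratio at or below that of Flt1. Blood endothelial markers were lower for 11 of 14, but their sum differed by a log2 ratio of -0.12 only, from 8442.7 to 7673.6 CPM. Against that sum Flt1 was at -1.001 and Pgf at -0.74.

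**Figure D4:**
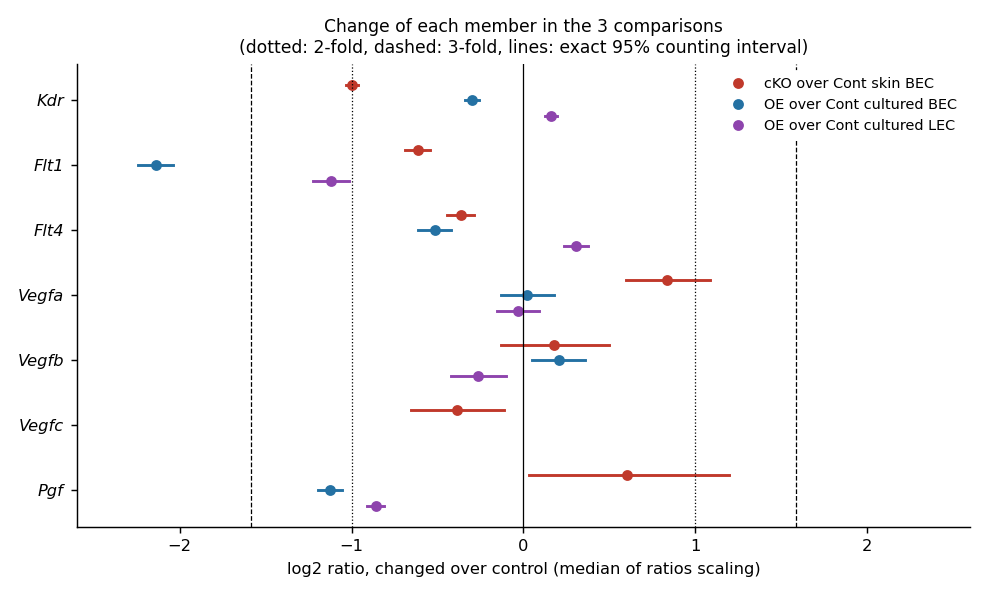
Log2 ratio of the changed over the control library for each member in the 3 comparisons, with exact 95% counting intervals as lines, dotted lines at 2-fold and dashed lines at 3-fold. Flt1 in OE-BECs (-2.14) was the only point beyond 3-fold, and Vegfc has no point in culture because it had 0 or 1 read there.

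Ratios between members within a library do not depend on the scaling. Flt1 had 0.4 reads per read of Kdr in Cont cultured BECs and 0.112 in OE-BECs, a log2 change of -1.84 (interval -1.95 to -1.73). In LECs the same ratio went from 0.177 to 0.0728, a change of -1.28 (interval -1.39 to -1.17). In skin it went from 0.231 to 0.301, a change of 0.38 (interval 0.30 to 0.46) in the other direction. The ratio of Flt1 to Kdr reads was thus lower than in Cont in both OE libraries and higher in the library labelled cKO. In the library labelled cKO Dot1l was not detectably lower (log2 ratio -0.07) and cell type markers also differed, and their part was not tested. Reads of Flt1 do not separate its soluble form. For Flt4 over Kdr the changes were smaller in culture, at -0.21 in BECs and 0.15 in LECs, and 0.63 (interval 0.55 to 0.72) in skin. Among the ligands Pgf over Vegfa changed by -1.15 (interval -1.32 to -0.98) in BECs and -0.83 (interval -0.96 to -0.70) in LECs, and by -0.23 in skin with an interval from -0.84 to 0.37 that included 0.

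The log2 ratios of the 2 overexpression comparisons were set side by side, each from 1 library per group and with intervals for counting error only. For Flt1 the log2 ratio to its own control in OE-BECs minus that in OE-LECs was -1.02 (interval -1.16 to -0.87), although its level stayed higher in OE-BECs (63.7 CPM) than in OE-LECs (37.4 CPM). For Pgf this difference was -0.27 (interval -0.35 to -0.18). Against the summed reads of the 14 blood endothelial markers, Flt1 was at -1.61 in OE-BECs and -1.001 in OE-LECs. Pgf was then at -0.59 in OE-BECs and -0.74 in OE-LECs, so for Pgf the line with the larger difference depended on the scaling. The difference for Vegfa was 0.05 (interval -0.14 to 0.25), which included 0. By size factors Kdr, Flt4 and Vegfb went in opposite directions in the 2 lines. Against the marker sum Kdr (0.23 in OE-BECs and 0.28 in OE-LECs) and Flt4 (0.02 and 0.42) did not. Dot1l itself was 2.78-fold higher in OE-BECs and 2.30-fold in OE-LECs by size factors, again in 1 library per group. A part of Dot1l level in the differences between the lines was not tested.

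The co-receptors and the other genes that act on VEGF receptors formed a list of 8. Nrp1, the co-receptor of Kdr (chromosome 8, 128358604 to 128503363), was at 812.4 and 589.6 CPM in Cont and cKO skin BECs, 51.2 and 35.0 in Cont BECs and OE-BECs, and 41.5 and 57.5 in Cont LECs and OE-LECs. Its log2 ratios were -0.52, -0.51 and 0.49, the directions of both Kdr and Flt4, and an exon of Nrp1 also holds the microRNA gene Mir1903. Nrp2, the co-receptor of Flt4, was at -0.69 in skin, 0.09 in OE-BECs and 0.32 in OE-LECs. In the library labelled cKO 5 of the 8 were lower and 0 passed 3-fold (median -0.51), beside 5.17% of all genes higher and 2.41% lower. In OE-BECs 1 of the 6 with enough counts passed, Ccbe1, a factor for the processing of Vegfc, which was higher with 356 and 1322 reads (log2 ratio 2.28, interval 2.11 to 2.45), and 8.02% of all genes were called higher. Ptprb, the phosphatase that restrains Kdr and Tie2, was at -1.22 there. In OE-LECs 1 of 7 passed, Figf (the gene of VEGF-D), with 7 and 32 reads, where 2.77% of all genes were called higher.

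Of 32 genes of VEGF receptor signalling, 0 passed 3-fold in the library labelled cKO, beside 5.17% of all genes higher and 2.41% lower, with a median of -0.10. In OE-BECs 1 passed higher and 1 lower, beside 8.02% and 5.27% of all genes. These were Sphk1, a sphingosine kinase, with 16 and 51 reads, and Prkcb, a protein kinase C, with 8 and 0. In OE-LECs Sphk1 alone passed, with 23 and 239 reads (log2 ratio 3.15, interval 2.53 to 3.83), beside 2.77% of all genes higher and 2.09% lower. Plcg1, the phospholipase that Kdr recruits, was at -0.38, -0.63 and -0.35 in the 3 comparisons, and Nos3, the endothelial nitric oxide synthase, at -0.95, 0.05 and 0.15. The list as a whole lay near 0, with medians of 0.05 and -0.01 in OE-BECs and OE-LECs.

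Genes known to rise with VEGF in endothelium were a list of 16. In OE-BECs 2 of the 14 with enough counts were called higher and 3 lower, beside 8.02% higher and 5.27% lower of all genes, with a median of -0.82. Dll4, the Notch ligand of tip cells, had 2717 and 635 reads (log2 ratio -1.71, interval -1.84 to -1.59) and Hlx, a homeobox gene, 2102 and 507 (-1.67, interval -1.81 to -1.53). Kcne3 was the third, on 4 and 1 reads. Apln, the ligand of the apelin receptor, went the other way, with 4489 and 12191 reads (1.82, interval 1.77 to 1.87), as did F3, tissue factor, on 14 and 35 reads. The list therefore did not move in 1 direction. In OE-LECs 0 of 14 passed 3-fold (median 0.04), beside 2.77% of all genes higher and 2.09% lower, and Dll4 was at -1.10. In the library labelled cKO 0 of 15 passed 3-fold (median -0.15), beside 5.17% and 2.41%, and Dll4 was at -0.41.

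Vegfa is a known target of the hypoxia response, and 14 other genes of that response were a separate list. In the library labelled cKO 12 of the 14 were higher, and the median log2 ratio of the list was 0.68, beside 0.00205 over all genes tested. At 2-fold or more 4 were higher and 1 lower, beside 10.4% and 5.23% of all genes. Adm, encoding adrenomedullin, had 63 and 499 reads (2.61, interval 2.23 to 3.01) and Bnip3, a mitophagy receptor, 178 and 791 (1.77, interval 1.54 to 2.02), and these 2 of the 14 passed 3-fold, beside 5.17% of all genes higher and 2.41% lower. Slc2a1, the glucose transporter, was at 0.75 and Ldha, lactate dehydrogenase, at 0.72, beside 0.84 for Vegfa. Other genes of the list were not higher, with Car9 at -1.07 on 21 and 13 reads and Ndrg1 at -0.02, and Ddit4 was at 0.08. A part of the hypoxia response in the difference of Vegfa was not tested. In OE-BECs the median was -0.12, and Ndrg1 (-1.82) and the stress gene Ddit4 (-1.84) passed 3-fold, both lower, as did 5.27% of all genes. In OE-LECs 0 of 13 passed (median 0.08), beside 2.77% of all genes higher and 2.09% lower.

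**Figure D5:**
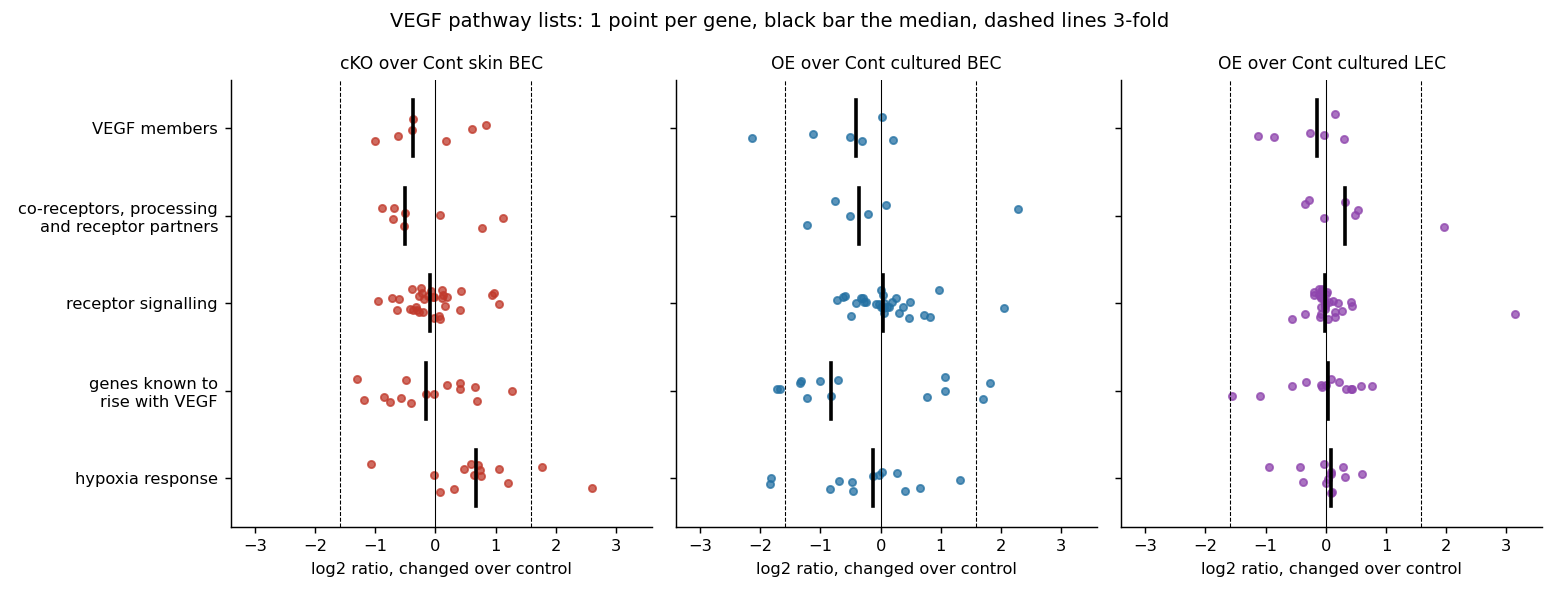
Log2 ratio of each gene of 5 lists in the 3 comparisons, 1 point per gene with a ratio, black bars for medians and dashed lines for 3-fold. The hypoxia list lay to the right in the skin comparison (median 0.68), and the list of genes known to rise with VEGF spread to both sides in OE-BECs (median -0.82).

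The genes whose levels ran most like each member were found by the root mean square difference of centred log2(CPM + 1) over the 6 libraries, among 9707 genes with a mean of at least 10 CPM. For Kdr they were Myo1e (0.07), Lnx2 (0.13) and Cdc42ep3 (0.15). Flt1 was most like Ccdc88c (0.23), Lmo2 (0.34) and Tspan18 (0.34), the last of which went from 103.5 to 18.9 CPM in OE-BECs and from 44.8 to 14.8 CPM in OE-LECs. For Flt4 the nearest were Lactb, Zbtb1 and Zfp780b (0.07 to 0.10), for Vegfa Dbnl, Acot2 and Gys1 (0.09 to 0.10), and for Vegfb Suds3, Upf3a and Gatad2a (0.10 to 0.13). Pgf was nearest to Fendrr (0.30), Lpin3 (0.32) and Tmprss11e (0.36), and Fendrr, a long noncoding RNA, was at 0 and 0.812 CPM in skin and at 27.9 to 47.2 in culture. Vegfc fell under the minimum. At a mean of at least 1 CPM its nearest genes were Gpc4, Map2 and Pcsk5 (0.04 to 0.06). The 6 points of each gene are 2 skin and 4 cultured libraries of unequal depth, and the likeness is given as a description.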

How the data were processed

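RNA-seq was performed on 6 libraries, and the group of each was taken from the labels. The authors prepared the libraries with ScriptSeq, trimmed adapters with skewer, aligned reads to mm10 with STAR, counted them per gene with VERSE (-S option) and deposited raw counts for 24421 gene symbols in 1 table. No column lacked a sample. The counts summed to between 8863349 and 31032461 reads per library.

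From these counts, normalized counts were computed for each pair of libraries by median of ratios in DESeq2 1.42.0 under R 4.3.3. A gene was called by the rule of the study's methods, a higher normalized count of at least 5 (skin) or 3 (culture) and more than 3-fold the lower one, and at 2-fold or more by the same minimum. Ratios have exact (Clopper-Pearson) 95% intervals on the reads, CPM values exact Poisson intervals, and changes in ratios Woolf intervals. With 1 library per group there was no test and no p-value. Exon lengths and positions came from GENCODE M21 and promoters from RefSeq. Figf and Car9 stand for Vegfd and Ca9 of the lists, by RefSeq synonyms. The steps in Python 3.11.15 (scipy 1.17.1, numpy 2.4.6, pandas 2.3.3) were tested on simulated data.

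The members and lists were chosen with earlier results of these data known. Named genes were the 7 members, Dot1l, Nrp1 and Nrp2, list genes past 3-fold with 100 or more normalized counts, up to 2 further well counted genes a list, the 3 genes most like each member, and defining markers. Other genes named because their count was small, or beside these (Prkcb, Kcne3, F3, Figf, Ptprb, Plcg1, Nos3, Slc2a1, Ldha, Pdpn, Mrc1), were chosen after their values were seen. So were Cd34, Egfl7, Car9, Adipoq, Plin1, Cidec, Krt1, Krt10 and Stab2. The alternatives were other scalings (all 6 libraries, TMM of edgeR 4.0.16, total counts with and without Rn45s), a pseudocount of 1, and a minimum of 20 or none. Scaling to 14 blood endothelial markers, a background of genes with 100 or more counts and the longest transcript as length were added after seeing the data.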

Additional observations from a re-analysis of the deposited data

Results flagged for a closer look

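Kdr, Flt4 and Vegfb went in opposite directions in the cultured lines, in 1 library per group, and this drew attention to them. The log2 ratio in OE-BECs minus that in OE-LECs was -0.46 for Kdr (interval -0.51 to -0.41), -0.82 for Flt4 (interval -0.94 to -0.70) and 0.47 for Vegfb (interval 0.25 to 0.68). These intervals cover counting error only, and the differences were not tested. Against the summed reads of the 14 blood endothelial markers, Kdr was at 0.23 in OE-BECs and 0.28 in OE-LECs, so its opposite directions did not remain. Flt4 was at 0.02 (interval -0.08 to 0.11) and 0.42, so its opposite directions did not remain either. Vegfb was at 0.74 and -0.14, the latter with an interval from -0.30 to 0.01 that included 0.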

How the results depend on the processing

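Under the planned scalings, the pseudocount and the minimum counts, the direction changed for 1 log2 ratio of a member, Vegfa in OE-BECs, from 0.02 to -0.02 with total counts, inside its counting interval (-0.13 to 0.18), and the counts of members past 3-fold and past 2-fold were the same in each comparison. Of 95 such values of single members, 93 stayed within their counting interval, and Kdr in skin moved to -0.94 with total counts, with or without Rn45s. In OE-BECs 1 signalling gene in place of 2 passed 3-fold with a minimum of 20, and 3 genes of the co-receptor list in place of 1 with no minimum. Scaling to the 14 blood endothelial markers, added after seeing the data, raised the median of all genes by construction to 0.60 in skin, 0.53 in OE-BECs and 0.12 in OE-LECs. It gave 2 members past 2-fold in skin and 1 in OE-BECs. The median of the members became 0.23 in skin and 0.12 in OE-BECs. Flt4 (0.23) and Vegfc (0.21) in skin, and Kdr (0.23) and Flt4 (0.016) in OE-BECs, changed direction, as did Vegfa in OE-LECs (from -0.03 to 0.09, with 0 inside both intervals). The call of Flt1 in OE-BECs was kept. No paired analysis was possible because each group has 1 library and the labels give no replicate numbers, and for the same reason no replicate could be left out. Low read numbers limit Pgf and Vegfb in skin and Vegfc in culture.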
